A study of Homo sapiens with 3 samples.

Results

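The transcripts of telomerase and shelterin proteins were described in C33A cells, a human cervical carcinoma line. The members were 10 genes, chosen by function, with earlier results of these data known. They were TERT, DKC1, NOP10 and NHP2 for telomerase, and TERF1, TERF2, TERF2IP, TINF2, POT1 and ACD for shelterin. They are 10 of the 18395 genes that could be named from a probe set with a single gene symbol. The cells grew exponentially in DMEM with fetal bovine serum and received no treatment. Total RNA of 3 separate cultures was put on arrays of the Affymetrix Human Gene 1.0 ST type, 1 for each culture. The study has this group alone, so there is no contrast between conditions, and C33A is a single tumour line that need not stand for cervical epithelium.

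Telomerase lengthens the repeats at chromosome ends with the reverse transcriptase TERT and a template RNA, TERC. The RNA carries an H/ACA domain that dyskerin (DKC1), NOP10, NHP2 and GAR1 bind, and the same proteins serve the H/ACA RNAs that guide pseudouridylation. Shelterin coats the repeats and keeps chromosome ends from being read as DNA breaks. Telomerase is silenced in most somatic tissues through TERT and is active again in most carcinomas.

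Values are log2 intensities as normalized by the authors with the Robust Multichip Average method (RMA), given as mean ± SD over the 3 cultures. Signal was set against a bound of 6.38 log2, the 95th percentile of 477 genes that belong to families with no transcript in most tissues (beta-defensins, keratin-associated proteins, and receptors of smell and taste). Genes were also divided by mean signal into 10 deciles and into tertiles, with the high tertile starting at 8.14 log2. Probe sets differ in how strongly they hybridize, so an order of genes is an order of signals and only roughly one of transcript amounts. The arrays resembled each other closely, with Pearson's r of 0.993 to 0.994 over all 33297 probe sets. Epithelial markers were weak in these cells: 2 of the 8 measured exceeded the bound, against 56.9% of all genes. These were keratin KRT18 at 7.75 ± 0.11 and KRT14 at 6.86 ± 0.08 (SD, n = 3), while EPCAM was at 4.52 ± 0.29 and CDH1 at 4.95 ± 0.09 (SD, n = 3). Of the markers of other cell types, the collagen gene COL3A1 was at 11.36 ± 0.06 and the leukocyte gene PTPRC at 8.82 ± 0.11 (SD, n = 3), whereas the fibroblast gene LUM was at 2.52 ± 0.14, CD3E at 4.59 ± 0.16, and no endothelial marker of 5, from PECAM1 at 3.58 to CDH5 at 5.07, exceeded the bound. In all, 2 of 5 leukocyte and 2 of 6 fibroblast markers did so, smaller shares than the 56.9% of all genes, and their part in the levels below was not tested.

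The promoters of the members with the highest signal, NOP10 and DKC1, and with the lowest, TERT and POT1, are shown, since the levels set these genes apart. Each run is the 250 bases before the annotated start in RefSeq (GRCh38.p14), 5′ to 3′ on the strand of the gene, and capitals mark matches to the motifs described with the promoters below. NOP10 lies at chr15:34343137-34343386 (minus strand), DKC1 at chrX:154762614-154762863 (plus strand), TERT at chr5:1295069-1295318 (minus strand) and POT1 at chr7:124929826-124930075 (minus strand).
NOP10: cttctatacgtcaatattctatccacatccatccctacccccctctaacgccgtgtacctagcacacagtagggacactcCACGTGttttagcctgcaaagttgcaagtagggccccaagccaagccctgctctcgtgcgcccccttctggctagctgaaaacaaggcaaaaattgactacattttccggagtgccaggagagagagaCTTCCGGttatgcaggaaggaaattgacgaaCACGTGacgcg
DKC1: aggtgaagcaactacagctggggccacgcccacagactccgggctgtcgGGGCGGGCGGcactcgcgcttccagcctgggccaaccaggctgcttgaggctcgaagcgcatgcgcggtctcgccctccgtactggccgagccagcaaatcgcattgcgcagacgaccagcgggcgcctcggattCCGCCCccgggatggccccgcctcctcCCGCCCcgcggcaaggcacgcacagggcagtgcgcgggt
TERT: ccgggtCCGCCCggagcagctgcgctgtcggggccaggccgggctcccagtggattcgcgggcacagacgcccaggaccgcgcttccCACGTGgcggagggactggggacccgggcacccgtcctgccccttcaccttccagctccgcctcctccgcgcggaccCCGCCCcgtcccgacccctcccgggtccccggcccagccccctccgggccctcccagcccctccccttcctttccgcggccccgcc
POT1: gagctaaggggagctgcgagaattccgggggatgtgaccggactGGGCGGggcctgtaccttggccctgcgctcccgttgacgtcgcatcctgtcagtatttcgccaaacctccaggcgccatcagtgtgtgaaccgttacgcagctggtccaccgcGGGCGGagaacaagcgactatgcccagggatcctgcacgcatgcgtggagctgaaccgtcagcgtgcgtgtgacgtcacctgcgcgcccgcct

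All 10 members had a signal above the bound of the silent families, against 56.9% of all genes. The H/ACA proteins among the members, NOP10, DKC1 and NHP2, had the strongest signals of the set and TERT one of the weakest. GAR1, an H/ACA protein that is not a member, was lower, at 8.78 log2. Of the members, 8 were in the high tertile, which holds 33.3% of all genes by construction, and the remaining members, TERT and POT1, were in the medium tertile. Decile 10, with 10% of all genes, held NOP10, DKC1 and NHP2. The median over the 10 members was 9.32 log2, and the median over all genes was 6.91.

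**Figure D1:**
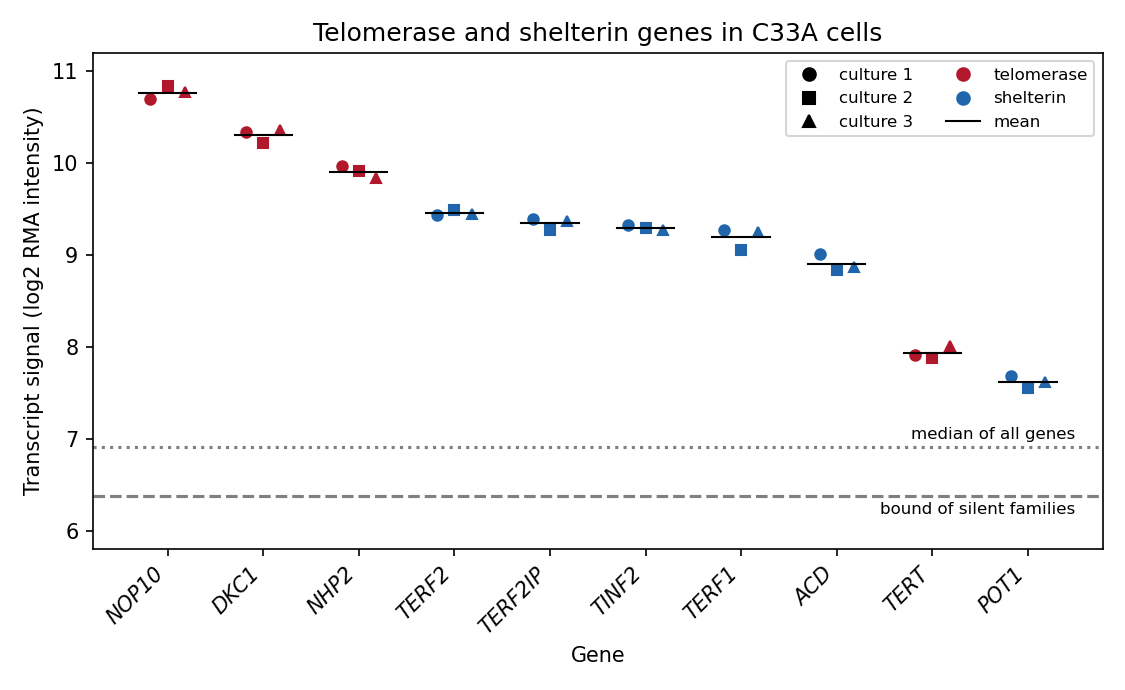
Signal of each member (y axis, log2 RMA intensity) on the 3 arrays, 1 symbol per culture, with a line at the mean, telomerase genes in red and shelterin genes in blue. The broken line is the bound of the silent families (6.38) and the dotted line the median of all genes (6.91); every point lies above both, and TERT and POT1 stand apart below the other members.

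Among the telomerase genes, NOP10, a small core protein of H/ACA particles, gave 10.70, 10.84 and 10.78 log2 on arrays 1, 2 and 3. It was the highest member on all 3 arrays, with a mean of 10.77 ± 0.07 (SD, n = 3), at percentile 96.5 of all genes. DKC1, the pseudouridine synthase mutated in X-linked dyskeratosis congenita, gave 10.34, 10.22 and 10.36 log2. Its mean of 10.31 ± 0.08 (SD, n = 3) was at percentile 93.9, and its values did not overlap those of NOP10. NHP2, which binds the H/ACA RNA together with NOP10 and dyskerin, gave 9.97, 9.91 and 9.84 log2. Its mean was 9.91 ± 0.07 (SD, n = 3, percentile 90.7), again without overlap with DKC1.

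TERT, the catalytic subunit, was the lowest of the telomerase genes by a wide margin. It gave 7.91, 7.88 and 8.01 log2, all above the bound, as for 55.5% of all genes, with a mean of 7.93 ± 0.07 (SD, n = 3). This is percentile 63.6 of all genes, and 6704 genes had a higher mean. The mean lay 1.55 log2 above the bound (limma, moderated test against the bound, one-sided, adjusted p = 8.12e-07 over all genes). This test passed for all 10 members and for 55.0% of all genes, and it measures the spread between arrays and not differences between probes. Of the 477 genes of the silent families, 5 had a higher mean than TERT, and all of them encode keratin-associated proteins. None of the 409 other silent genes did. The highest of these, the olfactory receptor gene OR1F1, was at 6.38 log2, just under the bound. All 24 silent genes above the bound are therefore among the 68 for keratin-associated proteins.

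**Figure D2:**
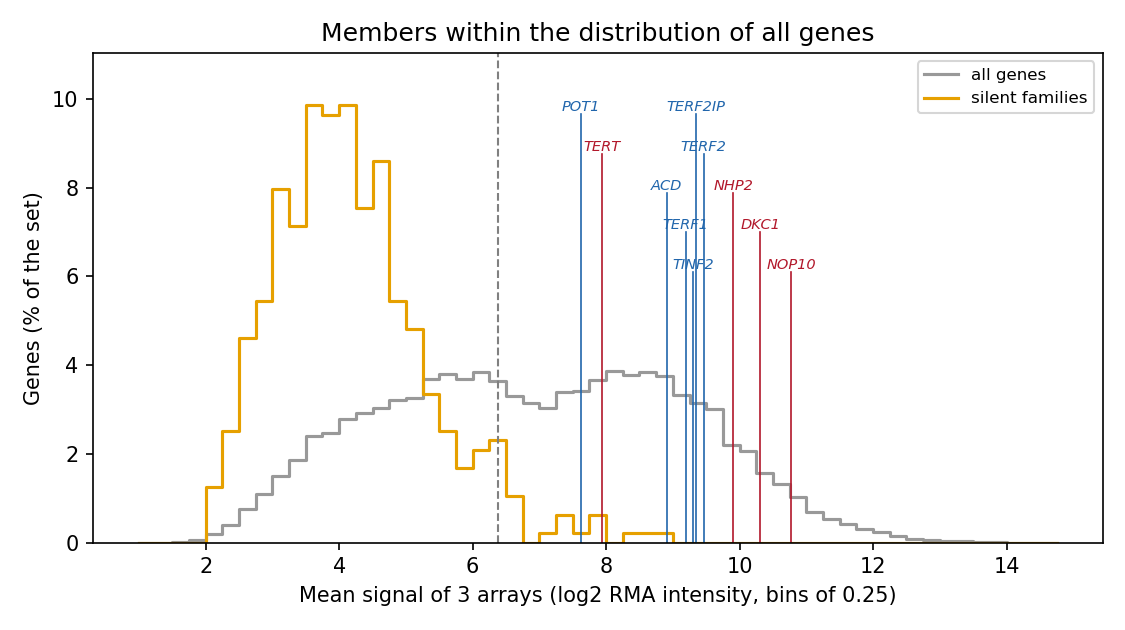
Distribution of the mean signal of all 18395 genes (grey) and of the 477 genes of the silent families (orange), as percent of each set (y axis) in bins of 0.25 log2 (x axis). Vertical lines mark the members (telomerase red, shelterin blue; their height has no meaning) and the broken line the bound; POT1 at 7.62 and TERT at 7.93 lie where a few keratin-associated protein genes also lie.

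Among the shelterin genes, 5 of 6 lay close together, with TERF1 taken as the average of its 2 probe sets, which read 9.90 and 8.49 log2. TERF2 encodes TRF2, which binds double-stranded repeats and holds back the ATM response at chromosome ends. It gave 9.44, 9.50 and 9.45 log2, a mean of 9.46 ± 0.03 (SD, n = 3) and the highest of this complex. TERF2IP, whose product RAP1 is held at telomeres by TRF2, gave 9.39, 9.27 and 9.37 log2, with a mean of 9.35 ± 0.06 (SD, n = 3). TINF2 encodes TIN2, the bridge between the proteins on double-stranded repeats and TPP1. Its values were 9.33, 9.29 and 9.28 log2, with a mean of 9.30 ± 0.03 (SD, n = 3) that could not be set apart from TERF2IP. ACD encodes TPP1, which joins POT1 to TIN2 and brings telomerase to the chromosome end. It gave 9.01, 8.84 and 8.87 log2, with a mean of 8.91 ± 0.09 (SD, n = 3) in decile 8.

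POT1, which binds the single-stranded overhang, had the lowest signal of all members on each of the 3 arrays. Its values were 7.68, 7.56 and 7.62 log2, with a mean of 7.62 ± 0.06 (SD, n = 3, percentile 59.1). The mean was 1.24 log2 above the bound (limma, one-sided, adjusted p = 1.82e-06 over all genes). Of the silent families, 7 genes had a higher mean, and again none of the 409 genes outside the keratin-associated proteins. With the 99th percentile of the silent families as the bound, 7.85 log2, POT1 no longer exceeded it. The other 9 members did, as did 37.7% of all genes. TERT, at 7.93 ± 0.07 (SD, n = 3), was only just above this bound.

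TERF1 was the member whose level depended most on the probe set. It encodes TRF1, which like TRF2 binds double-stranded repeats and takes part in telomere replication and length control. The annotation gives it 2 probe sets. The higher read 9.93, 9.86 and 9.90 log2, with a mean of 9.90 ± 0.03 (SD, n = 3), and the lower read 8.63, 8.26 and 8.59 log2, with a mean of 8.49 ± 0.20 (SD, n = 3). They differed by 1.40 ± 0.17 log2 (SD, n = 3), so the averaged level of 9.19 ± 0.12 (SD, n = 3) is that of neither. By the higher probe set TERF1 would be the highest shelterin gene, and by the lower it would stand below ACD. NHP2 also has 2 probe sets, at 10.07 ± 0.09 and 9.74 ± 0.04 (SD, n = 3), which differed by 0.34 ± 0.06 log2. The RefSeq table lists 7 pseudogenes named after TERF1 and 2 named after NHP2, and whether any of these probe sets reads a pseudogene was not tested. DKC1 is named on 2 more probe sets that it shares with small RNA genes within it. The probe set shared with SNORA56 was at 5.87 ± 0.18 and the other, shared with SNORA36A and MIR664B, at 3.99 ± 0.05 (SD, n = 3), both below the bound and neither used for the level of DKC1.

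The order of the means, from the highest, was NOP10, DKC1, NHP2, TERF2, TERF2IP, TINF2, TERF1, ACD, TERT and POT1. Of the 9 pairs of neighbours in this order, 7 had values that did not overlap between the genes. The share among pairs of other genes was not computed, so this count shows nothing particular to the members. The step from TERF1 to ACD rests on the average of the 2 TERF1 probe sets, and the lower of them, at 8.49 log2, stood below ACD. The values overlapped for TERF2IP and TINF2, which differed by 0.05 ± 0.06 log2 (SD of the difference, n = 3), and for TINF2 and TERF1, which differed by 0.10 ± 0.11. TERF2 and TERF2IP differed by 0.12 ± 0.09 log2 without overlap. The largest step was between ACD and TERT, 0.97 ± 0.12 log2. The same order was found on 2 of the 3 arrays, and on array 2 TERF2IP and TINF2 changed places. An exact two-sided sign permutation of a paired difference cannot go below p = 0.25 with 3 arrays, and no pair was tested.

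The median SD over the 3 cultures was 0.07 log2 for the members and 0.08 for all genes. Leaving out a single array moved the members' median SD by over 1.5 times in 1 case, to 0.042 without array 2, and it was 0.086 without array 3. The SD of a member ran from 0.03 for TINF2 and TERF2 to 0.12 for TERF1. The latter is the SD of the average of 2 probe sets, whose own SDs were 0.03 and 0.20. Spread falls as signal rises on these arrays, so each SD was set beside the median SD of the genes of its own decile. By this measure 3 of 10 members, TERF2, TINF2 and POT1, were below the median of their decile, as 50% of all genes are by construction. DKC1, NOP10 and NHP2 had SDs of 0.08, 0.07 and 0.07, where the median of decile 10 was 0.04. TERT had an SD of 0.07, where the median of decile 7 was 0.07. Array 1 gave the highest value for 6 members and array 2 the lowest for 6. The median deviation of the members from their means was 0.04 log2 on array 1 and -0.06 on array 2, while that of all genes was 0.01 and -0.0040. The median of the telomerase genes was 10.16, 10.06 and 10.10 log2 on the 3 arrays, and that of the shelterin genes 9.30, 9.17 and 9.26.

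**Figure D3:**
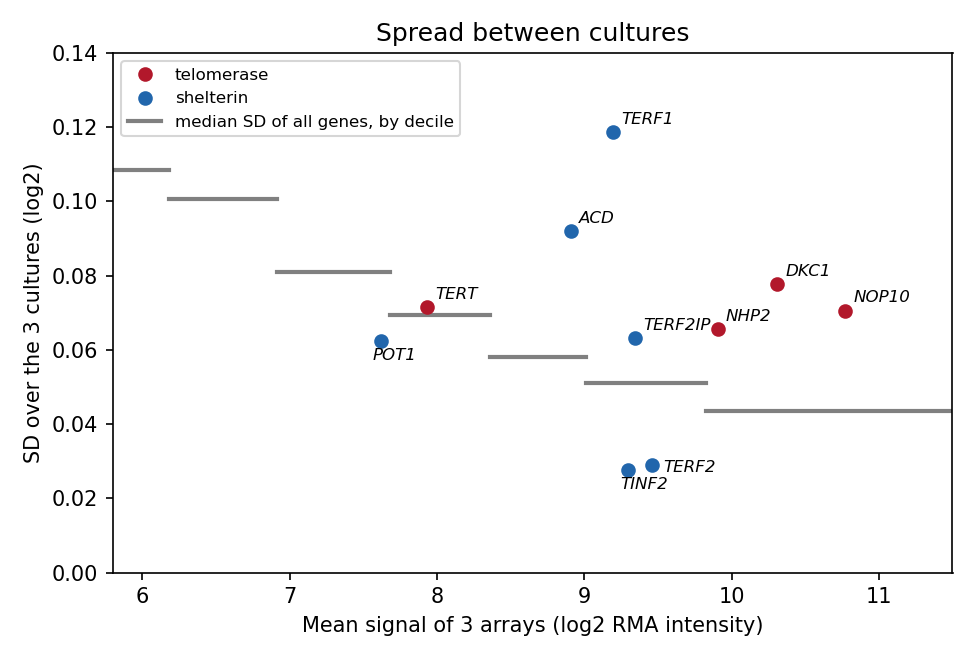
SD over the 3 cultures (y axis, log2) against the mean signal (x axis, log2 RMA intensity) for each member, telomerase red and shelterin blue. Grey lines give the median SD of all genes in each decile of signal. TERF1 has the widest spread of the members (0.12) and TINF2 and TERF2 the narrowest (0.03). The value of TERF1 is for the average of 2 probe sets, with SDs of 0.03 and 0.20.

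The other parts of the telomerase particle were also above the bound. The template RNA TERC gave 7.35, 7.45 and 7.51 log2, with a mean of 7.44 ± 0.08 (SD, n = 3), in the medium tertile like TERT. GAR1, the remaining H/ACA core protein, was at 8.78 ± 0.02 (SD, n = 3). WRAP53, whose product TCAB1 brings the RNA to Cajal bodies, was at 8.63 ± 0.01 (SD, n = 3).

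All 10 genes for building the H/ACA particle and maturing TERC were above the bound, with a median of 9.94 log2 and 8 in the high tertile. The highest was RUVBL2, an ATPase that takes part in assembly of H/ACA particles and telomerase, at 11.04 ± 0.05 (SD, n = 3), and the lowest was NAF1, an early assembly factor for H/ACA RNAs, at 7.34 ± 0.04 (SD, n = 3). Of 77 measured genes for H/ACA and Cajal body RNAs, 43 were above the bound (55.8%), with a median of 6.74 log2. DKC1, NOP10 and NHP2 bind H/ACA RNAs, but the Cajal body RNAs of this list were not sorted by box type. Of 115 genes for C/D box RNAs, which these proteins do not bind, 57 were above the bound (49.6%), with a median of 6.37. Of all genes, 56.9% were above the bound, and the median of all genes was 6.91. RNA was isolated with the RNeasy Mini Kit, and whether these probe sets read the mature small RNAs was not tested.

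Genes that fill in and process the chromosome end exceeded the bound in every case measured, against 56.9% of all genes. All 6 genes of the CST complex and of the polymerase alpha and primase it recruits were above it, from STN1 of CST at 7.42 ± 0.13 to the primase gene PRIM1 at 9.80 ± 0.02 (SD, n = 3). So were all 13 measured genes for replication and processing of telomeres, from the nuclease MRE11 at 6.97 ± 0.06 to XRCC6, the Ku70 subunit of the end-binding Ku dimer, at 12.41 ± 0.02 (SD, n = 3). All 4 measured genes tied to alternative lengthening of telomeres were above the bound as well, from FANCM at 7.11 ± 0.08 to SMARCAL1 at 8.86 ± 0.06 (SD, n = 3). ATRX and DAXX, whose loss is common in tumours that use alternative lengthening, were at 8.47 ± 0.07 and 8.35 ± 0.13 (SD, n = 3), named here after their values were seen.

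Among 10 shelterin partners and telomere-binding genes, 7 exceeded the bound, up to the poly(ADP-ribose) polymerase TNKS2, which acts on TRF1, at 9.74 ± 0.03 (SD, n = 3). The 3 that did not were TERB2 at 2.80 ± 0.27, TERB1 at 2.85 ± 0.08 and MAJIN at 4.29 ± 0.08 log2 (SD, n = 3), TERB1 and MAJIN named after their values were seen. Their products form the complex that tethers telomeres to the nuclear envelope in meiosis, where it binds TRF1. In all, 43 of the 46 measured genes of these lists exceeded the bound, with a median of 8.63 log2, beside 56.9% and 6.91 for all genes.

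**Figure D4:**
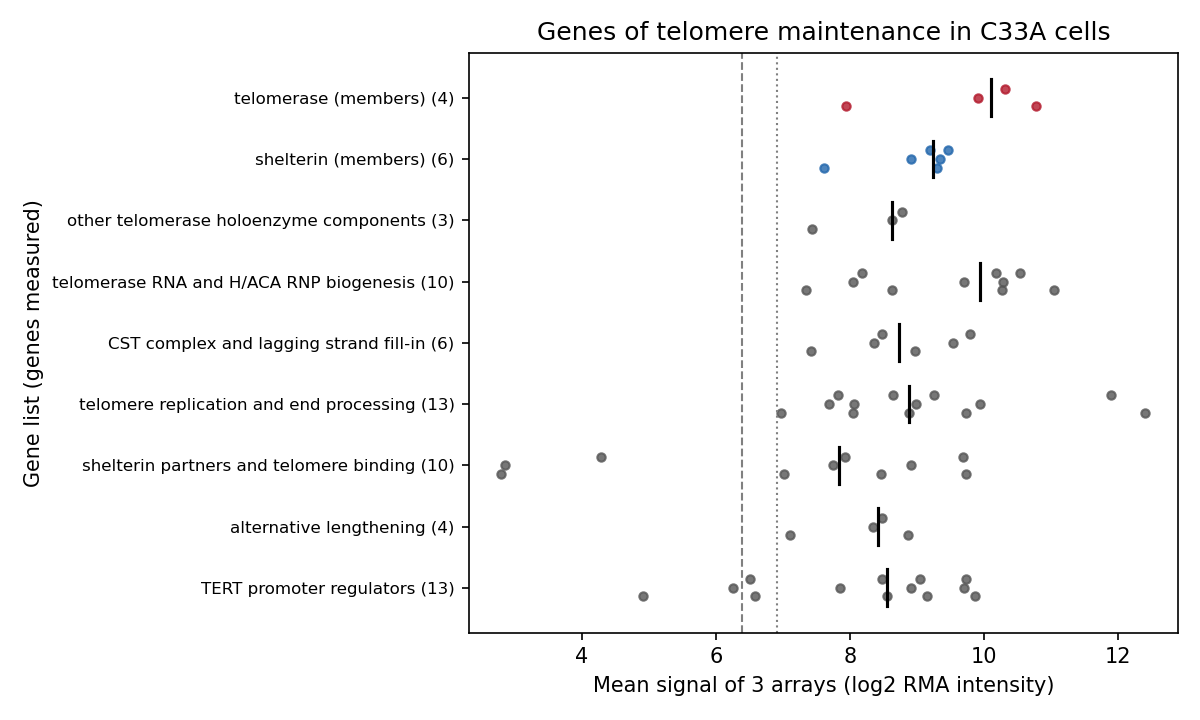
Mean signal of 3 arrays (x axis, log2 RMA intensity) for the members and for 7 other lists of telomere maintenance genes and TERT regulators, with the number of genes measured in brackets, 1 point per gene (vertical offsets only separate points) and a bar at the median. The broken line is the bound (6.38) and the dotted line the median of all genes (6.91); TERB2, TERB1 and MAJIN stand below the bound at 2.80, 2.85 and 4.29.

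Of 13 genes for regulators of the TERT promoter, 11 exceeded the bound, against 56.9% of all genes. The highest was CTCF, a repressor of TERT in somatic cells, at 9.86 ± 0.06 (SD, n = 3). Of the E-box binding factors, the activator MYC gave 9.75, 9.61 and 9.82 log2 and its partner MAX 7.80, 7.87 and 7.91, while MXD1, which competes with MYC for MAX and represses TERT, gave 6.49, 6.80 and 6.46. MYC, MAX, MXD1 and ETS2 are named after their values were seen. SP1, which binds GC boxes, was at 9.71 ± 0.03 (SD, n = 3). The genes that did not exceed the bound were ETS1 at 4.92 ± 0.09 and WT1, named after its value was seen, at 6.26 ± 0.11 (SD, n = 3). WT1 was above the bound on 1 of the 3 arrays.

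The 250 bases before the start were available for 8 members, all but TERF1 and TERF2, and for 27303 genes in all. They were searched on both strands for a GC box (GGGCGG), an E-box (CACGTG), an ETS site (CCGGAAG), the telomere repeat unit (TTAGGG) and E2F sites (TTTCGCGC, TTTGGCGC or TTTCCCGC). A gene with several such windows was counted if any of them held the motif. A GC box was found in 7 of the 8, all but NOP10, against 46.2% of all genes with a window and 77.3% of the 5183 of these in the high tertile. DKC1 had 4 of them, of which 2 overlap, and TERT and POT1 had 2 each. An E-box was found in TERT, 163 bases before the start, and at 2 places in NOP10, 170 and 11 bases before it, against 7.73% of all genes with a window and 12.4% of those in the high tertile. An ETS site was found in NOP10, TERF2IP and TINF2, against 10.2% of all genes with a window and 22.7% of those in the high tertile. The telomere repeat unit was found in NHP2, where it overlaps a GC box, against 9.65% of all genes with a window and 10.4% of those in the high tertile. No E2F site in these letters lay in the windows of the 8 members, against 2.85% of all genes with a window and 5.54% of those in the high tertile. The share of G and C ran from 52.0% in NOP10 to 78.8% in TERT. Averaged over the windows of each gene, its median was 58.0% over all genes with a window and 65.2% over those in the high tertile. These matches describe the sequence and show no binding.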

How the data were processed

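Total RNA of 3 independent C33A cultures was measured on 3 arrays, 1 per culture. The authors hybridized Affymetrix Human Gene 1.0 ST arrays, normalized them by RMA, processed them further with oneChannelGUI and deposited log2 intensities per probe set; software versions are, in the sources used here, not given. No detection call or raw intensity was used, and precision is limited by the number of arrays.

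Of 33297 probe sets, 19460 carry 1 symbol in the platform annotation and were used, 1754 carry several symbols and 12083 are without a listed gene. Symbols were updated through RefSeq (GRCh38.p14), which matched all of the 18395 genes, and log2 values were averaged over the probe sets of a gene (788 genes have more than 1). No test between groups was possible. The test against the bound of the silent families used limma with Benjamini-Hochberg adjustment over all genes and a threshold of 0.05, and was tested on simulated data. Named genes are the members, every other telomerase component, and the highest and lowest gene of each other list; others are marked, except KRT14, CDH1 and SP1, also named after their values were seen. The members and lists were chosen with earlier results of these data known. The alternatives left out each array, took the highest probe set or genes with 1 probe set, centred the arrays, kept written symbols or protein-coding genes, and changed the bound or the call. Computations used Python 3.11.15, NumPy 2.4.6, pandas 2.3.3, matplotlib 3.10.9, R 4.3.3 and limma 3.58.1.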

Additional observations from a re-analysis of the deposited data

Results flagged for a closer look

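Genes of the pathway lists that lie only on probe sets with several gene symbols were left out of the counts, and 3 of them had a signal above the bound of the silent families. TEN1, the third subunit of CST, lies on 2 probe sets with several symbols, with a mean of 8.12 log2. The first of these is shared with the read-through gene TEN1-CDK3. RTEL1, a helicase that unwinds telomeric loops, shares its probe set with TNFRSF6B and their read-through gene and was at 8.11 log2. H3-3A encodes the histone variant H3.3 that ATRX and DAXX deposit. It lies on 4 probe sets with several symbols, the first of them shared with H3P6, with a mean of 11.56 log2. The signal of a shared probe set cannot be assigned to either gene.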

How the results depend on the processing

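All 10 members exceeded the bound when each array was left out in turn, when the arrays were centred, with symbols as written, with protein-coding genes alone, with the highest probe set, with the 90th percentile, without the keratin-associated protein genes and by limma's test. With the 99th percentile 9 did, as did 37.7% of all genes, and of the other genes 34 in place of 43. The 90th percentile and the omission of the keratin-associated protein genes lowered the bound, to 5.72 and 5.44 log2. No member could fall below it there, and 66.9% and 71.2% of all genes exceeded these bounds. In the other settings the share of all ranked genes was 55.0% to 59.5%. Among genes with 1 probe set, which leaves out TERF1 and NHP2, all 8 remaining members exceeded the bound. The highest probe set raised TERF1 to 9.90 and NHP2 to 10.07 log2, the median of the telomerase genes from 10.11 to 10.19 and that of the shelterin genes from 9.25 to 9.32, and put 4 members in decile 10. Among genes with 1 probe set the telomerase median was 10.31. Without 1 array it lay between 10.08 and 10.13 and the shelterin median between 9.22 and 9.28, and the members' median SD between 0.042 and 0.086 log2, the lowest without array 2. No paired analysis was possible because the series holds 1 group. Without a detection call, a signal near the bound says little about the presence of a transcript.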
